A study of Mus musculus with 10 samples.

Results

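Collagen chain genes are the genes named Col, a number, the letter a and a number, each of which encodes 1 α chain of a collagen. The names chose 43 genes among the 18384 listed in the mRNA-seq data. They were measured in cultured adipocyte precursors (APs), the fibroblast-like cells of fat that can become adipocytes, from subcutaneous white adipose tissue of C57BL/6J mice. The APs had been passed through magnetic selection to deplete CD45-positive and CD31-positive cells and then selected for SCA-1. Control APs (3 cultures, libraries 1 to 3) were grown without added cytokine. IL-4-treated APs (3 cultures, libraries 4 to 6) were incubated with interleukin-4, and both groups were taken at day 4 of that incubation. Neither group is described as carrying an altered gene. Small RNA was sequenced from 2 further control and 2 further IL-4-treated cultures at day 2. How many mice gave each culture is not stated in the sources used here, and p-values measure the spread between cultures.

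A collagen molecule forms when α chains, each built of short repeats that begin with glycine, fold together into a triple helix. The fibrillar collagens I, III and V assemble into the load-bearing fibrils of connective tissue, collagen IV forms the sheet-like network of basement membranes, and collagen VI forms beaded filaments close to cells that are abundant around adipocytes. FACIT collagens sit on the surface of fibrils. New chains are hydroxylated and glycosylated in the endoplasmic reticulum, exported with the chaperone HSP47, trimmed of their end pieces outside the cell and crosslinked by lysyl oxidases.

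The libraries held 28526782 to 29057787 expected counts (reads assigned to genes, where a read that fits several genes is divided among them), and 34 of the 43 chains passed the filter on low counts. All 9 AP markers examined were read in every library, with summed FPKM (fragments per kilobase of transcript at a common sequencing depth) of 977 to 1020 in control and 1150 to 1290 in IL-4-treated libraries. Of these 9, 5 rose, Lum and Pdgfrb fell, and 2 were not called. All 12 macrophage markers were read as well, with summed FPKM of 3240 to 4160 in control and 1290 to 1670 with IL-4, and 10 of the 12 fell while Mrc1 rose. Among them Ptprc, the gene of CD45, had 16.95, 19 and 18.93 FPKM in control and 8.18, 8.48 and 8 with IL-4. The summed FPKM of 6 endothelial markers was 12.8 to 13.1 in control and 9.27 to 10.2 with IL-4, that of 5 pericyte and smooth muscle markers 11.1 to 12.2 and 4.36 to 5.82, that of 5 Schwann cell markers 14 to 15 and 6.8 to 8.03, that of 4 mesothelial markers 6.35 to 7.3 and 9.72 to 11.4, and that of 4 keratinocyte markers 1.51 to 2.32 and 6.54 to 7.52, with most of the latter from Cdh1. Tek rose while 3 endothelial markers fell, and S100b rose while 3 Schwann cell markers fell. The mesothelial marker Upk3b was at 0 in all IL-4-treated libraries. Of 6 cartilage and bone markers, Acan and Ibsp were not listed, and the rest summed to 15 to 15.7 and 15.6 to 17.2. Among 5 adipocyte markers, Cidec and Lep were not listed and Plin1 and Adipoq were under 0.4 FPKM, while Fabp4 made up nearly all of the sum of 32.8 to 38.8 in control and 55 to 78.6 with IL-4. In these bulk samples, fewer cells of a type and less RNA per cell cannot be told apart, and the part of the macrophage shift in the collagen results was not tested.

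Long transcripts were read less in 2 libraries, control 3 and IL-4 6. Against the other 2 libraries of its group, IL-4 6 had a median log2 ratio of 0.26 for genes with transcripts under 2 kb and -0.50 for genes of 8 kb and over, and control 3 had 0.13 and -0.26. Many collagen transcripts are long, and the 27 chains with at least 100 normalized counts had a median log2 ratio of -0.33 in IL-4 6 and -0.08 in control 3. The part of transcript length in the results was not tested, and values without IL-4 6 are given below for tested chains whose call or side of the 2-fold line they change.

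Of the 34 tested chains, 10 were upregulated and 15 downregulated in IL-4-treated APs at an adjusted p under 0.05 (edgeR's quasi-likelihood test, Benjamini-Hochberg adjustment over 14009 genes). Among all genes tested, 19% were higher and 18.4% lower by the same rule. Beyond 2-fold, 8 chains were higher and 10 lower, against 5.77% and 5.26% of all genes. The median log2 fold change was -0.14 over the 34 chains and 0.00256 over all genes. In 28 of the 34 chains the normalized counts of the groups did not overlap, as they did not in 50.4% of all genes tested. Without both control 3 and IL-4 6, 15 chains were higher and 15 lower, with all 10 and all 15 of these calls kept, and the added calls were Col28a1, Col4a3, Col5a2, Col6a3 and Col9a2. Of these, Col9a2 is not among the 34, and the share of all genes called in this setting is not given here. The filter keeps a chain that is high in one group alone, as with Col6a6, Col6a4 and Col4a3, which had under 10 counts in at least 1 control library, and Col4a6 and Col17a1, which had under 10 in at least 1 IL-4-treated library, so these counts describe the chains that passed and not the 43.

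**Figure D1:**
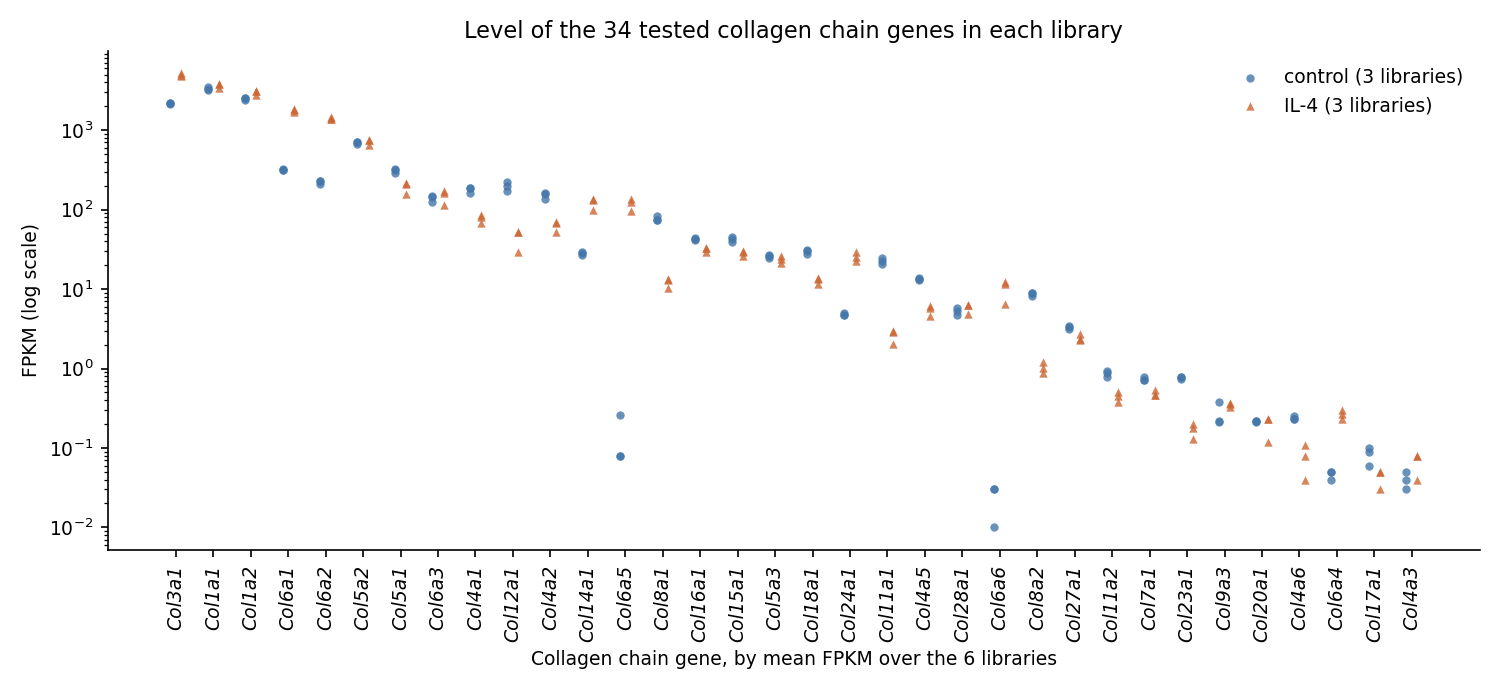
FPKM of the 34 tested collagen chain genes in each mRNA-seq library on a log axis, ordered by mean FPKM, with circles for the 3 control and triangles for the 3 IL-4-treated libraries. Col3a1, Col1a1 and Col1a2 lead in both groups, and Col6a5 and Col6a6 are the chains with the widest gap between groups.

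The fibrillar class was led by the chains of collagens I and III. Col3a1, the single chain of collagen III, which is typical of soft and healing tissue, had 2190.3, 2151 and 2201 FPKM in control and 5178, 5007 and 4818 in IL-4-treated libraries. Every IL-4-treated library lay well above every control, at 2.59-fold (log2 fold change 1.37, standard error 0.07, edgeR adjusted p = 3.88e-06). By expected counts Col3a1 was the third most abundant gene of all in each control library and the most abundant in each IL-4-treated library.

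Collagen I, the main protein of dermis and tendon, is made of Col1a1 and Col1a2 chains. Col1a1 measured 3473, 3283 and 3167 FPKM in control and 3859.7, 3781 and 3430.3 with IL-4, so that on this scale the lowest IL-4-treated library lay within the control range. After scaling to normalized counts the groups did not overlap and the rise passed the test (log2 fold change 0.33, standard error 0.09, edgeR adjusted p = 0.0168). Col1a2 had 2538, 2533 and 2432 FPKM in control and 3156, 3076 and 2738 with IL-4 and did not overlap on either scale (log2 fold change 0.43, standard error 0.09, edgeR adjusted p = 0.00495). Library totals, which place the median gene at -0.17 rather than near 0, gave Col1a1 a log2 fold change of 0.16 (edgeR adjusted p = 0.147) and Col1a2 one of 0.26 (edgeR adjusted p = 0.0303), so that only Col1a2 stayed called. On the FPKM scale, limma on log2(FPKM + 1) called neither chain (adjusted p = 0.426 for Col1a1 and 0.171 for Col1a2). Without control 2, control 3 or IL-4 5 the edgeR adjusted p of Col1a1 was 0.0657, 0.0637 and 0.0662.

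The chains of collagen V, which sits inside collagen I fibrils and limits their width, parted. Col5a1 fell, with 315, 321 and 291 FPKM in control against 215, 208 and 157 with IL-4 (log2 fold change -0.50, standard error 0.13, edgeR adjusted p = 0.017), and missed the threshold without control 1 or control 2 (edgeR adjusted p = 0.0631 and 0.0628). Col5a2 had 707, 719 and 676 FPKM in control and 746, 749 and 655 with IL-4, overlapping groups that were not called (log2 fold change 0.21, standard error 0.08, edgeR adjusted p = 0.0901). The third chain of the family, Col5a3, was not called either (log2 fold change 0.06, standard error 0.09, edgeR adjusted p = 0.627) and its sign changed with the scaling. Without IL-4 6, Col5a2 passed the test at a log2 fold change of 0.29 (edgeR adjusted p = 0.00167).

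Col24a1 and Col11a1, both minor fibrillar genes, moved far in opposite directions. Col24a1, a fibrillar chain known from developing bone, rose from 4.78, 5.06 and 4.71 FPKM to 29.1, 25.5 and 22.6 FPKM, with the groups apart (log2 fold change 2.58, standard error 0.11, edgeR adjusted p = 1.23e-06). Col11a1, a chain of collagen XI, which is best known from cartilage fibrils, fell from 22.8, 24.4 and 20.9 FPKM to 3, 2.9 and 2.04 FPKM, again with the groups apart (log2 fold change -2.93, standard error 0.16, edgeR adjusted p = 4.05e-06). Its partner Col11a2 was far lower in level, at 0.93, 0.78 and 0.88 FPKM in control and 0.5, 0.45 and 0.38 with IL-4, and fell less (log2 fold change -0.77, standard error 0.14, edgeR adjusted p = 0.0039). Col27a1, another fibrillar chain of cartilage, was not called (log2 fold change -0.25, standard error 0.09, edgeR adjusted p = 0.0589). It was called lower with upper-quartile scaling (edgeR adjusted p = 0.0349), with library totals (log2 fold change -0.43, edgeR adjusted p = 0.00472), in both limma fits (adjusted p = 0.00919 and 0.0107) and without IL-4 4 (edgeR adjusted p = 0.0189). Col2a1, the main collagen of cartilage, had at most 5 counts in a library and was not tested, and it was called lower when no filter was used.

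**Figure D2:**
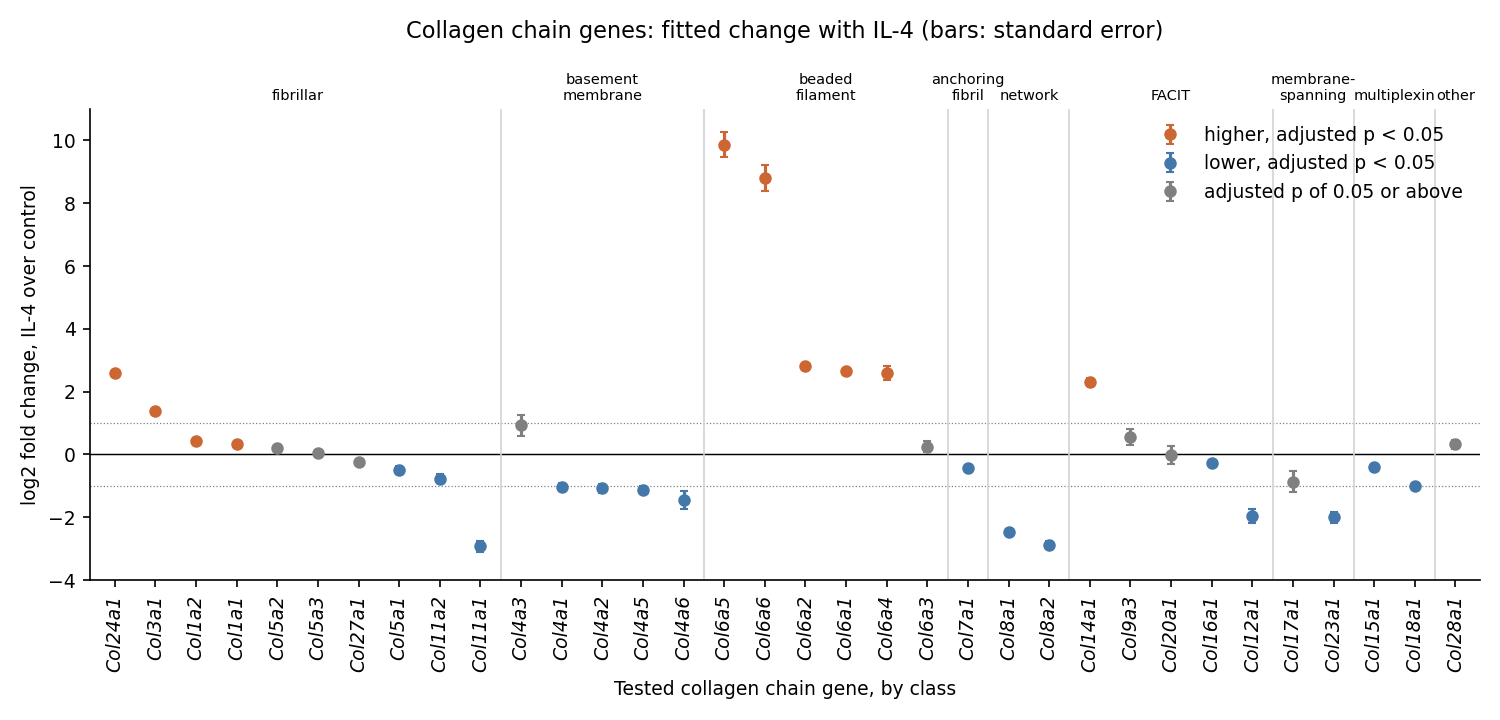
Fitted log2 fold change of each tested collagen chain gene, IL-4-treated over control, with bars for the standard error, grouped by class, and dotted lines at 2-fold in either direction. The beaded filament class (collagen VI) holds 5 of the 10 chains that rose and none that fell, and the basement membrane and network classes hold 6 that fell and none that rose.

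Collagen VI rose most of the 9 classes by the ratio of summed FPKM, with 5 of its 6 chains upregulated, all beyond 2-fold, and none downregulated. The summed FPKM of the class was 681 ± 8.05 (SD, n = 3) in control and 3470 ± 180 (SD, n = 3) with IL-4, a ratio of 5.09. A collagen VI unit joins an α1, an α2 and a long further chain, classically α3, and mice also have Col6a4, Col6a5 and Col6a6, whose products resemble α3 and can take its place. Col6a1 rose from 317, 313 and 328 FPKM to 1846, 1805 and 1691 FPKM (log2 fold change 2.65, standard error 0.07, edgeR adjusted p = 1.87e-07). Col6a2 rose from 227, 211 and 232 FPKM to 1459.8, 1401 and 1365 FPKM (log2 fold change 2.83, standard error 0.07, edgeR adjusted p = 1.41e-07). Both were at least 5 times the highest control value in every IL-4-treated library, and by FPKM Col6a1 moved from rank 178, 179 and 186 among all genes in control to rank 11, 12 and 17 with IL-4.

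Col6a3 did not follow them. It had 143, 148 and 125 FPKM in control and 172, 162 and 114 with IL-4, where library IL-4 6 was below all 3 controls and the other 2 were above them (log2 fold change 0.25, standard error 0.17, edgeR adjusted p = 0.284). Without IL-4 6, the log2 fold change was 0.43 and passed the test (edgeR adjusted p = 0.00139). Its transcript is among the longest of the chains, at 9089 to 9498 bases as the authors' software weighted its isoforms.

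The related Col6a5 went from nearly unread to a level near that of Col6a3. Its expected counts were 21, 22 and 70 in control and 36131.49, 32974.41 and 25630.67 in IL-4-treated libraries, or 0.08, 0.08 and 0.26 FPKM against 135, 123 and 95.4 FPKM. The fitted rise of 933-fold was the largest among the chains (log2 fold change 9.87, standard error 0.39, edgeR adjusted p = 8.66e-07). Control 3 had more than 3 times the counts of the other 2 controls. A set of 14 genes had at least 1000 normalized counts with IL-4, and at least 100 times their mean in controls 1 and 2. Control 3 exceeded both other controls for all 14, by a median ratio of 2.92. The set includes Col6a5 and Col6a6 and was chosen after its values were seen. Its rule asks for low values in controls 1 and 2 but not in control 3, which by itself favours a higher control 3. Without control 3, the log2 fold change of Col6a5 was 10.66 (edgeR adjusted p = 1.59e-06).

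Col6a6 went from 5, 3 and 7 expected counts in control to 2523.51, 2343.59 and 1326.33 with IL-4, or from 0.03, 0.01 and 0.03 FPKM to 12.4, 11.5 and 6.48 FPKM (log2 fold change 8.81, standard error 0.42, edgeR adjusted p = 2.31e-06). The counts of Col6a5 and Col6a6 are fractional in the IL-4-treated libraries, and their sums are whole, at 38655, 35318 and 26957. Some reads were thus divided between these similar genes, and the smaller value, that of Col6a6, is uncertain to that extent. Col6a4 stayed low, with 9, 11 and 11 counts in control and 63, 57 and 49 with IL-4, yet the groups did not overlap (log2 fold change 2.59, standard error 0.22, edgeR adjusted p = 5.5e-05).

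**Figure D3:**
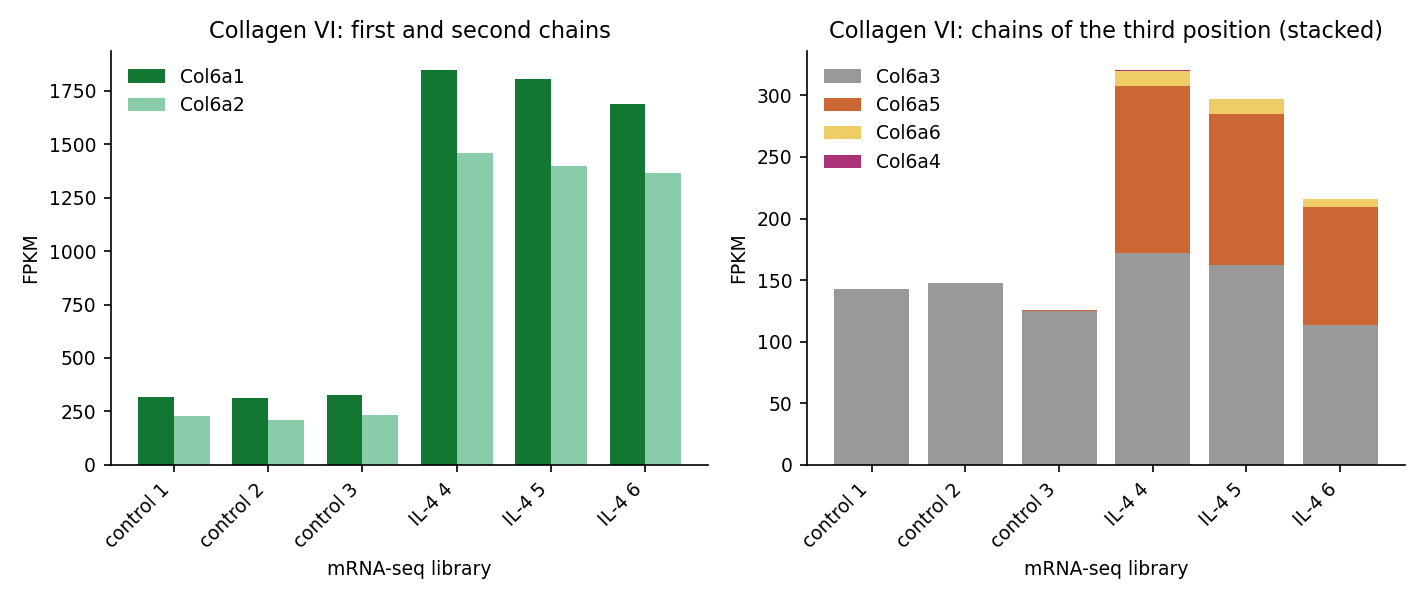
FPKM of collagen VI chains in each mRNA-seq library, with Col6a1 and Col6a2 side by side at left and the chains of the third position stacked at right. Col6a1 lies between 313 and 328 in control and between 1691 and 1846 with IL-4, and Col6a5 (orange) lies between 95.4 and 135 with IL-4 and at 0.26 or less in control.

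Among the chains of the third position, Col6a4, Col6a5 and Col6a6 together held 0.105%, 0.0946% and 0.271% of the summed FPKM in control and 46.2%, 45.4% and 47.3% with IL-4, a share that was much the same in IL-4 6 as in the other IL-4-treated libraries. The summed FPKM of Col6a3 to Col6a6 was 139 ± 11.8 (SD, n = 3) in control and 278 ± 54.8 (SD, n = 3) with IL-4. Col6a1 was thus 2.31 ± 0.26 times this sum in control and 6.56 ± 1.12 times it with IL-4 (SD, n = 3 each). This grouping was chosen after the values were seen, and no test was made of it.

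Col6a6, Col6a5 and Col6a4 lie in a row on 1 strand of chromosome 9, with 27823 and 27854 bases between neighbours (GRCm38: Col6a6 chr9:105689417-105828246, Col6a5 chr9:105856070-105962463, Col6a4 chr9:105990318-106096828, all on the minus strand), whereas Col6a1 and Col6a2 share a stretch of chromosome 10 and Col6a3 lies on chromosome 1. Because Col6a5 changed most, its promoter window is shown, 250 bases before to 50 after the transcript start in RefSeq's promoter table, which lies inside the gene record above (chr9:105960594-105960893, minus strand), with matches to 6 motifs searched on both strands in capitals.
Col6a5 promoter: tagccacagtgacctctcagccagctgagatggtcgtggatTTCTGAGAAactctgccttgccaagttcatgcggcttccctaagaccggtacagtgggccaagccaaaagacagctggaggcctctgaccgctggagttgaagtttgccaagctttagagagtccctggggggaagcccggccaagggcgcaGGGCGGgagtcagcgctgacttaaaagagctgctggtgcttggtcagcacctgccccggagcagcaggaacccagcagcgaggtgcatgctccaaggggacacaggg
The first capitals are TTCNNNGAA, a palindrome of the kind that STAT factors bind, and the last are GGGCGG, the core of a GC box. IL-4 acts through STAT6, which favours the wider palindrome TTCNNNNGAA. That wider form was in 0 of the 28 tested chains that have a window, against 6.6% of 11077 tested genes. The narrower form was in 2 chains, Col28a1 and Col6a5 (7.1%, against 8.3% of genes), TGANTCA, the AP-1 motif, in Col6a1 alone (3.6% against 6.5%), TATAAA in 3 (10.7% against 8.8%), and CCAAT in 11 (39.3% against 42.8%). GGGCGG was in 20 of the 28 (71.4%, against 67.5% of genes). A match is a string of letters in these 300 bases and not a measured binding site.

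The basement membrane chains fell. Of the 6 collagen IV genes, 4 were downregulated, all beyond 2-fold, none rose, and the summed FPKM of the class was 343 ± 30.5 (SD, n = 3) in control and 147 ± 19.6 (SD, n = 3) with IL-4. Col4a1 and Col4a2, the chains of the common form of collagen IV, moved together. Col4a1 fell from 189, 185 and 161 FPKM to 84.5, 80.6 and 67.6 FPKM (log2 fold change -1.03, standard error 0.11, edgeR adjusted p = 0.000208). Col4a2 fell from 161, 158 and 135 FPKM to 70.8, 67.6 and 52.1 FPKM (log2 fold change -1.08, standard error 0.14, edgeR adjusted p = 0.000462). Library IL-4 6 was the lowest for both, and the groups did not overlap. Col4a5 and Col4a6, which form rarer versions, also fell. Col4a5 had 13.5, 13.9 and 12.8 FPKM in control and 6.05, 5.76 and 4.63 with IL-4 (log2 fold change -1.12, standard error 0.11, edgeR adjusted p = 0.000144). Col4a6, at 48, 44 and 43 counts in control and 15, 21 and 8 with IL-4, was low in both groups (log2 fold change -1.45, standard error 0.30, edgeR adjusted p = 0.00604). The 2-fold line runs through this class. Without IL-4 6, all 4 chains stayed called but Col4a1, Col4a2 and Col4a5 were under 2-fold, at log2 fold changes of -0.92, -0.94 and -0.99, and Col4a6 was at -1.14. Col4a3 was near the filter, at 8 to 20 counts, and was not called (log2 fold change 0.93, standard error 0.34, edgeR adjusted p = 0.0663), but passed without IL-4 6 at 1.18 (edgeR adjusted p = 0.0179). Col4a4 had at most 18 counts in a library and was not tested.

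Collagen IV genes are arranged head to head in pairs. Col4a1 (chr8:11198423-11312889, minus strand) and Col4a2 (chr8:11312805-11449287, plus strand) overlap by 85 bases at their starts in GRCm38, Col4a3 and Col4a4 by 114, and Col4a5 and Col4a6 on the X chromosome start 1274 bases apart. The counting is not stated to use strand, so reads within an overlap cannot be told apart. The window of Col4a2 (chr8:11312555-11312854, plus strand, RefSeq) is shown because its last 78 bases lie also within the window of Col4a1, which runs the other way, and both genes fell alike.
Col4a2 promoter: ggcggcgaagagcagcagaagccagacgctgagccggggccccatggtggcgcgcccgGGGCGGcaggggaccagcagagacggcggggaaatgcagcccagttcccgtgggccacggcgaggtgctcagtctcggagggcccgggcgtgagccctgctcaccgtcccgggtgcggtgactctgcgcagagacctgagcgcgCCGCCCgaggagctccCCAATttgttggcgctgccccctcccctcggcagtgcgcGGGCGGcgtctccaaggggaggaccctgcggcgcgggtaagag
The capitals are, in order, GGGCGG on the plus strand, GGGCGG on the minus strand, CCAAT, and GGGCGG on the plus strand. G and C made up 73.7% of this window, against 60% of that of Col6a5.

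Both chains of collagen VIII, a short-chain collagen that forms open networks beneath endothelium and around vessels, fell far beyond 2-fold. Col8a1 went from 73.5, 83.8 and 73 FPKM in control to 13.4, 12.9 and 10.2 with IL-4, 5.6-fold lower (log2 fold change -2.48, standard error 0.12, edgeR adjusted p = 3.02e-06). Col8a2 went from 8.13, 8.89 and 8.86 FPKM to 1.22, 1.01 and 0.89 FPKM, 7.36-fold lower (log2 fold change -2.88, standard error 0.12, edgeR adjusted p = 1.21e-06). Each IL-4-treated library was far below every control for both. Col10a1, the third network chain and a mark of hypertrophic cartilage, had at most 9 counts.

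The FACIT class, whose members bind to fibril surfaces, was split. Col14a1, known from skin and tendon fibrils, rose from 28.4, 29.5 and 26.5 FPKM to 135, 133 and 99.2 FPKM (log2 fold change 2.30, standard error 0.13, edgeR adjusted p = 6.72e-06). Col12a1, its close relative, fell from 196, 222 and 171 FPKM to 52.6, 51.9 and 29.6 FPKM, 3.89-fold lower (log2 fold change -1.96, standard error 0.23, edgeR adjusted p = 0.000308). Neither gene had overlapping groups. In library IL-4 6 Col12a1 stood well below the other 2, and without that library its log2 fold change was -1.72. Col12a1 exceeded Col14a1 in every control library and was below it in every IL-4-treated one. Col16a1 fell slightly (log2 fold change -0.28, standard error 0.08, edgeR adjusted p = 0.0207) and lost its call without control 1 or control 2 (edgeR adjusted p = 0.0858 and 0.0687). Col20a1 and Col9a3, both under 0.4 FPKM, were not called (log2 fold change -0.02, standard error 0.28, edgeR adjusted p = 0.959 for Col20a1, and log2 fold change 0.56, standard error 0.26, edgeR adjusted p = 0.137 for Col9a3). Without control 1, Col9a3 passed at 0.86 (edgeR adjusted p = 0.038). Col9a1, Col9a2 and Col22a1 had at most 1, 16 and 5 counts and were not tested with all libraries, and Col19a1, the remaining gene of this naming in the annotation, was not listed.

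The multiplexins, basement membrane collagens that carry heparan or chondroitin sulfate chains and release endostatin-type fragments, both fell. Col18a1 went from 27.5, 31.2 and 30.6 FPKM to 13.3, 13.8 and 11.6 FPKM (log2 fold change -1.01, standard error 0.10, edgeR adjusted p = 9.49e-05), and without IL-4 6 its log2 fold change was -0.91. Col15a1 fell less, from 38.8, 43.3 and 44.6 FPKM to 29, 30.1 and 25.8 FPKM (log2 fold change -0.40, standard error 0.09, edgeR adjusted p = 0.00749). The groups did not overlap for either.

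Of the membrane-spanning collagens, Col23a1 fell from 0.79, 0.78 and 0.74 FPKM to 0.18, 0.2 and 0.13 FPKM, on counts of 126, 125 and 119 in control and 29, 32 and 22 with IL-4 (log2 fold change -2.0, standard error 0.17, edgeR adjusted p = 4.98e-05). Col17a1, the hemidesmosome collagen of epidermis, had 5 to 15 counts per library and was not called (log2 fold change -0.87, standard error 0.33, edgeR adjusted p = 0.0726), though with library totals it was (edgeR adjusted p = 0.0307), and Col13a1 and Col25a1 had at most 2 and 1. Col7a1, the anchoring fibril collagen beneath the epidermis, fell at low level from 0.79, 0.71 and 0.72 FPKM to 0.53, 0.46 and 0.47 FPKM (log2 fold change -0.43, standard error 0.11, edgeR adjusted p = 0.0157), a call lost without control 1 or IL-4 5 (edgeR adjusted p = 0.0667 and 0.0636). Col28a1, a chain described in peripheral nerve, was not called (log2 fold change 0.33, standard error 0.14, edgeR adjusted p = 0.101), though without IL-4 6 it passed at 0.46 (edgeR adjusted p = 0.00203). Col26a1 had at most 2 counts.

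Chains that join in 1 molecule were compared by the ratio of their FPKM within each library, for 7 pairs in which both genes were tested. With 3 libraries against 3, the exact two-sided permutation test cannot go below p = 0.1, and no ratio could pass 0.05. Col4a1 over Col4a2 was 1.18 ± 0.0127 in control and 1.23 ± 0.0604 with IL-4 (exact permutation p = 0.3), with IL-4 6 at 1.3 and the other IL-4-treated libraries at 1.19. Col1a1 over Col1a2 was 1.32 ± 0.0401 and 1.24 ± 0.0157, and Col6a1 over Col6a2 was 1.43 ± 0.0481 and 1.26 ± 0.0248. Col8a1 over Col8a2 was 8.9 ± 0.604 and 11.7 ± 0.895. The other 3 ratios moved further. Col5a1 over Col5a2 went from 0.441 ± 0.00939 to 0.268 ± 0.0253, Col6a3 over Col6a1 from 0.435 ± 0.0469 to 0.0835 ± 0.0142, and Col11a1 over Col11a2 from 26.6 ± 4.15 to 5.94 ± 0.541 (SD, n = 3 in each group). For the 6 pairs other than Col4a1 and Col4a2 the groups did not overlap, and each had the smallest exact permutation p possible, 0.1 (0.117 after Benjamini-Hochberg adjustment over the 7 pairs).

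Collagen chains as a whole took 6.25%, 6.17% and 5.91% of all expected counts in control and 9.31%, 9.06% and 8.26% in IL-4-treated libraries, 2.77 percentage points more on average (exact two-sided permutation p = 0.1, the smallest possible). Col3a1 alone took 1.2 ± 0.0144% and 2.75 ± 0.0975% (SD, n = 3 each), the larger part of this gain, and collagen VI took 0.337 ± 0.00623% and 1.47 ± 0.0975%. Basement membrane chains went from 0.223 ± 0.0197% to 0.0954 ± 0.0127%, FACIT chains from 0.27 ± 0.031% to 0.147 ± 0.0294% and network chains from 0.0425 ± 0.00318% to 0.00658 ± 0.000929%. As a share of summed FPKM, which does not weigh long transcripts more, collagen chains made up 2.52 ± 0.145% in control and 3.97 ± 0.493% with IL-4. The macrophage markers moved the other way over the same libraries, as given above, and the share of each sample that was not AP RNA was not measured.

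The genes that modify, export, trim, crosslink and take up collagen were examined as a list of 49. Of 48 tested, 29 were upregulated and 5 downregulated, beside the 19% and 18.4% of all genes, with a median log2 fold change of 0.43. With library totals in place of TMM scaling, 24 were higher and 9 lower. The enzymes that hydroxylate and glycosylate the chains, listed with partners such as Crtap, rose in 11 of 14 cases and fell in 1, P4ha3. Plod2, the lysyl hydroxylase of the chain ends, rose from 101, 102 and 104 FPKM to 304, 317 and 287 FPKM (log2 fold change 1.74, standard error 0.07, edgeR adjusted p = 8.67e-07). P4ha1 and P4ha2, catalytic subunits of the prolyl hydroxylases that stabilise the helix, rose by less (log2 fold change 0.70, standard error 0.05, edgeR adjusted p = 3.04e-05 for P4ha1, and log2 fold change 0.27, standard error 0.05, edgeR adjusted p = 0.00515 for P4ha2). Of 8 genes listed under chaperones and export 5 rose and none fell, and the 5 include the transcription factor gene Creb3l1 (log2 fold change 1.15). Serpinh1, which encodes HSP47, measured 1014, 942 and 1022 FPKM in control and 1143, 1173 and 1285 with IL-4 (log2 fold change 0.45, standard error 0.07, edgeR adjusted p = 0.00108). The calls of P4ha2, Plod3, Fkbp10 and Serpinh1 were lost in both limma fits. Those of P4ha2, Plod3 and Fkbp10 were also lost with library totals, and in these same settings the export gene Sec24d was called lower. The groups of Mia3, an export gene that rose, overlapped (edgeR adjusted p = 0.0485). Its call was lost with library totals, no filter, both limma fits and without any 1 library other than IL-4 6.

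Outside the cell, 6 of 7 tested genes of propeptide trimming rose, though the call of Adamts3 was lost in both limma fits and without control 1 or control 3. Pcolce2, an enhancer of the procollagen C-proteinase, went from 2.53, 3.06 and 3.04 FPKM to 66.6, 65.1 and 72.3 FPKM (log2 fold change 4.74, standard error 0.09, edgeR adjusted p = 6.76e-08), and Adamts14, which removes the N-terminal propeptide, also rose (log2 fold change 1.39, standard error 0.13, edgeR adjusted p = 8.16e-05). Tll1, a C-proteinase, was the member that fell, from 0.69, 0.79 and 0.56 FPKM to 0.24, 0.26 and 0.18 FPKM (log2 fold change -1.41, standard error 0.22, edgeR adjusted p = 0.00132). Of 5 lysyl oxidases 3 rose. Lox went from 798, 830.1 and 756 FPKM to 1828, 1863 and 1516 FPKM (log2 fold change 1.30, standard error 0.11, edgeR adjusted p = 4.91e-05), Loxl3 had a log2 fold change of 1.90 (standard error 0.05, edgeR adjusted p = 2.01e-07) and Loxl4 one of 1.98 (standard error 0.09, edgeR adjusted p = 1.46e-06), while Loxl1 fell. In the breakdown and uptake group 3 of 7 rose and Mmp13, an interstitial collagenase, fell slightly (log2 fold change -0.16, standard error 0.05, edgeR adjusted p = 0.0384), a call lost with no filter and without any 1 library other than IL-4 6. Ctsk, a lysosomal protease that cuts collagen, rose from 119.7, 111 and 121 FPKM to 359.9, 365 and 444 FPKM (log2 fold change 1.91, standard error 0.09, edgeR adjusted p = 1.55e-06), and Mmp2, a gelatinase, from 359.6, 336 and 344 FPKM to 832, 829.8 and 842 FPKM (log2 fold change 1.44, standard error 0.06, edgeR adjusted p = 1.18e-06). Of the 7 receptor genes Ddr2 rose (log2 fold change 0.46, standard error 0.14, edgeR adjusted p = 0.0327), Ddr1 fell and the 5 integrin genes were not called. The call of Ddr2 was lost with library totals, in both limma fits and without any 1 library other than IL-4 6. With library totals 3 of the integrin genes were called lower, and without IL-4 6 Itga1 was called higher. The groups did not overlap for any gene given with its FPKM in these lists.

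**Figure D4:**
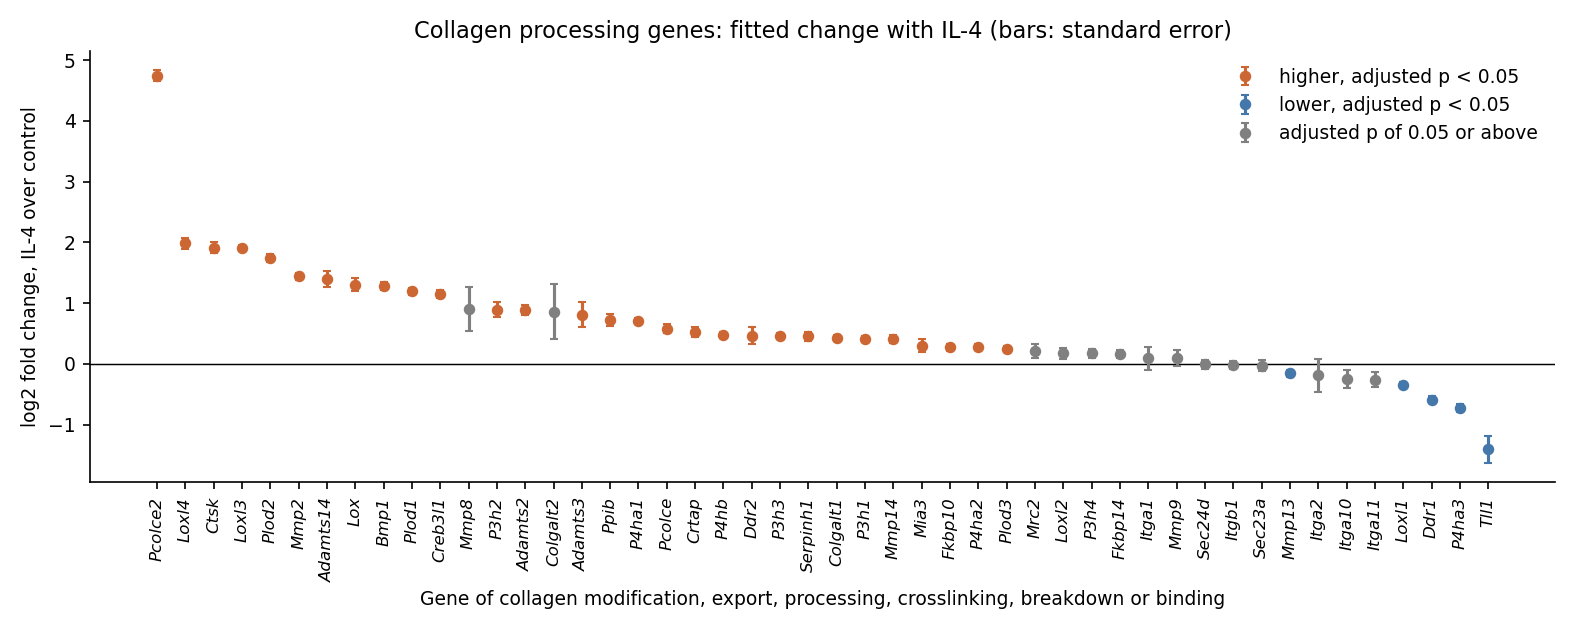
Fitted log2 fold change of the 48 tested genes of collagen modification, export, processing, crosslinking, breakdown and binding, IL-4-treated over control, with bars for the standard error. Pcolce2 stands apart at 4.74, 29 genes are higher, and 5 are lower, down to Tll1 at -1.41.

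The miR-29 family, known for targeting extracellular matrix mRNAs, was examined because many collagen 3′ UTRs hold matches to its seed (bases 2 to 8, in capitals). The family has 1 seed in common, so that each member matches the same sites.
miR-29a-3p: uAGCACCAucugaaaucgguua
miR-29b-3p: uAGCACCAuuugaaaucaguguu
miR-29c-3p: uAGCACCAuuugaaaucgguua
The letters that pair with this seed, TGGTGCT, were found in the longest annotated 3′ UTR of 25 of the 43 chains (58.1%), and in 14.4% of the 13371 tested genes with a 3′ UTR (RefSeq, GRCm38). Longer UTRs hold more chance matches, and the median length was 971 bases for the chains and 1077 for all tested genes. The longer form, in which an A follows the match, was in 16 chains (37.2%) against 3.2% of genes. A match is not evidence that the miRNA acts on it.

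Matches were held by chains that rose, fell or were not called. The sites of Col3a1 (higher, chr1:45348967-45348989, plus strand), Col4a1 (lower, chr8:11199761-11199783, minus strand), Col11a1 (lower, the first of 2 sites, chr3:114219068-114219090, plus strand) and Col6a3 (not called, chr1:90767411-90767433, minus strand) show the match in capitals, with 15 bases before it and 1 after.
Col3a1 site: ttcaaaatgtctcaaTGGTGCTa
Col4a1 site: gccaccgtcacaacaTGGTGCTa
Col11a1 site: ctatttggatttcgtTGGTGCTg
Col6a3 site: cgtgacctgtcaataTGGTGCTa
Of 19 tested chains with a match, 4 rose and 10 fell, and of 15 without one, 6 rose and 5 fell. Among all genes tested, 19% were higher and 18.4% lower. Their shares with and without a match were not computed, so a link between match and direction was not tested. Col1a1, Col3a1, Col24a1 and Col6a2 are the chains with a match that rose, and Col6a1, Col6a5, Col6a6, Col14a1, Col1a2 and Col6a4 rose with none.

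The miR-29 miRNAs were read at day 2, before the mRNA was taken at day 4, and in other cultures. miR-29a-3p had 58797 and 68957 reads in the control and 60046 and 68177 in the IL-4-treated libraries (log2 fold change -0.22, standard error 0.20, edgeR adjusted p = 0.976). It made up 92.5% to 95.4% of the reads of the 3 family members. miR-29b-3p had 2510 and 1777 reads in control and 2869 and 2091 with IL-4 (log2 fold change -0.03, standard error 0.39, edgeR adjusted p = 0.99), and miR-29c-3p had 1348 and 1551 and then 1982 and 2004 (log2 fold change 0.24, standard error 0.23, edgeR adjusted p = 0.976). An interval of 2 standard errors around the estimate runs from -0.62 to 0.18 for miR-29a-3p, from -0.81 to 0.75 for miR-29b-3p and from -0.21 to 0.7 for miR-29c-3p. With 2 libraries in each group, changes within these intervals cannot be told from none. By the same test 0 of 640 miRNAs passed (0%), with 39 at an unadjusted p under 0.05 and 12 passing in DESeq2.

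The 6 H19X miRNAs, the cluster on the X chromosome on which the study centred, had log2 fold changes from 1.02 (miR-351-5p) to 1.86 (miR-503-5p) and edgeR adjusted p from 0.0866 to 0.45, with unadjusted p from 0.000239 to 0.00985. Their seeds matched fewer collagen chains than that of miR-29. For miR-322-5p the share was 16.3% against 22.8% of tested genes, for miR-351-5p 7% against 14.5%, for miR-542-3p 14% against 15.4%, and for miR-450b-5p 9.3% against 12.1%. No chain matched miR-503-5p (4.6% of genes), and 2 chains, Col11a1 and Col4a4, matched miR-450a-5p (4.7% against 1.2%). These chain shares are over all 43 chains, while the gene shares are over tested genes. Over the 34 tested chains they were 17.6% for miR-322-5p, 5.9% for miR-351-5p, 17.6% for miR-542-3p, 8.8% for miR-450b-5p and 2.9% for miR-450a-5p. For miR-542-3p this lay above the share of genes rather than below it.

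**Figure D5:**
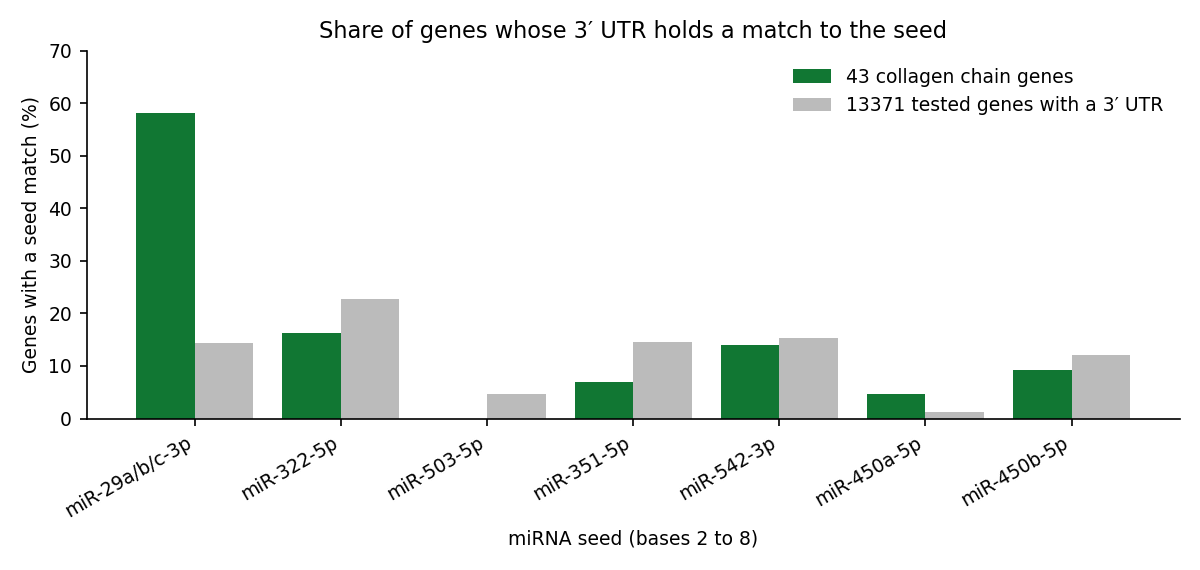
Percentage of genes whose longest annotated 3′ UTR holds a match to bases 2 to 8 of each miRNA, for the 43 collagen chain genes and for the 13371 tested genes with a 3′ UTR. The chains stand at 58.1% for the seed shared by miR-29a, miR-29b and miR-29c, against 14.4% of genes, and at 16.3% or less for the 6 H19X miRNAs.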

How the data were processed

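IL-4-treated APs were incubated with IL-4 for 4 days for mRNA-seq (poly-A RNA) and for 2 days for small RNA sequencing. Per the study's methods and the labels, the authors trimmed reads with SOAPnuke and used HISAT, Bowtie2 and RSEM with mm10. The deposited files give expected counts (not normalized, reads shared between genes divided among them) and FPKM, the same reads put by the authors on a scale of length and depth. Small RNA files hold raw counts per precursor, which the authors obtained with miRDeep2 and miRBase, and of a miRNA's several precursors the one with most reads was used. A gene not listed in a library was taken as 0. One row per mRNA library without a gene (0.00022% of counts or less) was left out.

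For each comparison the rounded expected counts passed through filterByExpr (at least 10 counts, 15 in total) and TMM scaling and were tested with edgeR 4.0.16 (quasi-likelihood, R 4.3.3). Standard errors are the log2 fold change divided by the square root of F. Normalized counts are counts brought to the mean TMM-scaled library size. The test was tried on simulated data (13890 genes for mRNA), where it recovered 88.8% of genes changed by 1 on the log2 scale, with 4.6% of calls on unchanged genes. For small RNA (619 miRNAs) it recovered 60.4%, with 5.6%. Both simulations changed equal numbers up and down and gave no library a transcript length effect. In that for mRNA, far fewer genes changed than were called in the real data. These rates thus need not hold for the real libraries. Ratios and shares were tested by exact two-sided permutation (scipy 1.17.1). Library depth was 28526782 to 29057787 for mRNA and 23790821 to 32061504 for small RNA, and counts set the precision for low chains.

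Alternatives were DESeq2 1.42.0, upper-quartile scaling, library totals, limma 3.58.1 on log2(FPKM + 1) or on log2(FPKM + 0.1), no filter, a replicate block for small RNA, and each library left out in turn. Leaving out control 3 with IL-4 6 was added after the data were seen. Every tested chain is named. Values in each library are given for the 8 chains of highest mean FPKM and those beyond 2-fold, other chains are given by fold change or largest count, and of the processing genes Serpinh1, P4ha1, P4ha2, Plod2 and Lox and up to 8 beyond 2-fold are named. Levels of low chains, and of genes named for falling against their group, were added. Some processing genes whose call changed in an alternative are named as well. The chains, lists and tests were chosen with earlier results of these data known. Promoters, 3′ UTRs and coordinates are from RefSeq on GRCm38.p6, the assembly of mm10. Protein sequences were not used here.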

Additional observations from a re-analysis of the deposited data

How the results depend on the processing

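Over 13 alternatives and 34 chains, 407 of 442 fold changes kept their direction and side of the threshold, 14 lost and 15 gained a call, and 6 changed sign. The sign changes were those of Col5a3 (-0.11 with library totals, -0.11 and -0.12 in limma on log2(FPKM + 1) and log2(FPKM + 0.1), and -0.01 to 0.15 with 1 library left out, lowest without IL-4 4) and Col20a1 (-0.17 to 0.25 with 1 library left out, highest without IL-4 6, and 0.24 without control 3 and IL-4 6), neither called. Library totals and the limma fits moved the median of all genes to -0.17, -0.13 and -0.17. Leaving out 1 library gave 9 to 15 chains higher and 12 to 16 lower, and 8 to 10 and 6 to 10 beyond 2-fold. Without IL-4 6 the 6 lower chains beyond 2-fold lack Col18a1, Col4a1, Col4a2 and Col4a5, which stayed called, and the 15 higher ones include Col6a3, Col5a2, Col28a1, Col4a3 and Col9a2. Without both control 3 and IL-4 6, 15 were higher and 15 lower, 10 and 8 beyond 2-fold. Col9a2 is outside the 34 chains, and the shares of all genes called with libraries left out are not given here. Of the processing genes 26 to 34 were higher and 4 to 5 lower with 1 library left out, and 9 were lower with library totals. The gain in collagen share was 1.45 percentage points in summed FPKM and 2.56 to 3.08 with 1 library left out. A following A reduced the chains with a miR-29 match to 16. The labels give the mRNA groups no shared replicate number, so none of their libraries were paired. For small RNA, deviations of same-numbered libraries correlated at 0.455 with only 2 pairs, and a replicate block gave miR-29a-3p a log2 fold change of -0.22 and 31 calls among 640 miRNAs in place of 0. miR-29b-3p turned to 0.06 with library totals and 0.03 with no filter, and ranged from -0.51 to 0.53 with 1 library left out. Chains under about 20 counts are limited by depth.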

Other observations

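The files also give each gene's length as weighted by its isoforms in a library. Of the tested chains in which it varied by over 10 bases, 3 had groups that did not overlap. For Col18a1, which has a short and longer forms, it was 5129.6, 5152 and 5128 bases in control and 5265, 5238 and 5161 with IL-4. The length of Col6a3 was 9397, 9498 and 9285 bases in control and 9241, 9209 and 9089 with IL-4, and that of Col11a2 was 6459, 6391 and 6386 and then 6481, 6541 and 6541. Each of the 3 had the smallest exact two-sided permutation p possible, 0.1, without adjustment. The share of all genes whose lengths part in this way was not computed, and Col11a2 rests on 71 to 170 counts per library. Of the other tested chains, Col4a5, Col6a6 and Col17a1 also varied by over 10 bases, with overlapping groups. In Col6a3 and Col18a1, IL-4 6 had the shortest length of its group. The part of transcript coverage in these lengths was not tested.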
